A study of Mus musculus with 4 samples.

Results

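Oxidative phosphorylation genes were described here in mouse pancreatic islet cells. They were all genes named mt-Nd, mt-Co, mt-Atp and mt-Cytb, Ndufa, Ndufb, Ndufc, Ndufs and Ndufv, Sdha to Sdhd, Uqcr, Cox4 to Cox8 and Atp5, without the Ndufaf assembly factors and Ndufa4l2. This choice by name gave 96 of the 30905 genes in the deposited matrices. Of these, 13 are encoded by mitochondrial DNA (7 for complex I, 1 for complex III, 3 for complex IV and 2 for complex V) and 83 by the nucleus (36, 4, 8, 19 and 16 for complexes I, II, III, IV and V). Ndufa4 was counted with complex IV, where its protein is now placed.

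Oxidative phosphorylation passes electrons from NADH and succinate through complexes I to IV of the inner mitochondrial membrane to oxygen, and complex V uses the proton gradient this builds to make ATP. Complexes I, III, IV and V are mosaics of subunits from both genomes, while complex II is encoded by the nucleus alone. In pancreatic beta cells, ATP from this chain closes potassium channels and so couples glucose to insulin release.

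Single-cell RNA libraries of islets, 1 per group, were labelled late db/db with intervention, late db/db, early db/db and normal control. Ages were 98 days in the intervention, late db/db and control groups and 70 days in early db/db, so early db/db was also the younger group. All 4 samples, the control included, carry the genotype label db/db(C57BL/KsJ), and the mice were male. C57BL/6 mice also appear in the growth protocol, so the labels do not settle the genotype of the control. The db/db mouse lacks signalling leptin receptor and becomes obese and diabetic. The labels do not say what the intervention was or how many mice were pooled. The matrix of the early db/db sample is named like a repeat control, and the sample label was followed for it. With 1 library per group there was no test and no replicate check, and group, animal and library cannot be told apart. All intervals below are exact 95% intervals of counting error alone.

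The libraries held 157952234 UMIs (unique molecule counts) with the intervention, 120934779 in late and 125498999 in early db/db and 166034254 in the control, and 4906, 5983, 4616 and 4458 cells were kept. Cells over the maximum of 20% mitochondrial UMIs, which were left out, made up 5.63% of the intervention, 3.0% of the late, 1.68% of the early and 11.3% of the control cells that passed the other filters. Beta-like cells numbered 3376, 820, 1666 and 2279 in the same order of libraries, alpha-like cells 584, 154, 852 and 1086, delta-like cells 274, 131, 295 and 510, and gamma-like cells 99, 28, 26 and 141. Ins1 and Ins2, Gcg, Sst and Ppy marked these classes. Gamma-like cells also held 12.5%, 13.5%, 18.3% and 30.6% of their UMIs as Ins2 and 1.70%, 0.492%, 4.45% and 8.99% as Ins1. Ppy took 23.9%, 25.4%, 24.9% and 10.8%, so in the control Ins2 exceeded Ppy. Their cluster also raised 11 beta and 10 alpha markers, so the name gamma-like is uncertain, most of all in the control. The part of free RNA in this was not tested. Libraries shared at most 11 cell barcodes with each other. Levels are given as CPM, a gene's UMIs scaled to the UMIs of its class outside mitochondrial genes and 7 hormone genes. The hormone genes took 59.1%, 53.5%, 59.4% and 69.1% of beta-like UMIs in the intervention, late, early and control libraries. A gene was compared when it averaged at least 20 CPM over the 4 libraries and had at least 50 UMIs over the pair, and a ratio of at least 1.5-fold was counted as higher or lower.

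Promoters are shown for 4 nuclear members that the results turn on. Ndufa1, Ndufc2 and Uqcrh stood highest over control in beta-like cells of late and early db/db, and Cox6a1 is the partner isoform of Cox6a2, the member furthest below control. Each line gives the 250 bases before the RefSeq start of the gene (GRCm38.p6), 5′ to 3′ on the gene's strand. Capitals mark the only matches found among 4 motifs searched on both strands, the NRF1 motif GCGCATGCG in Cox6a1, where both strands match over the same bases, and the ETS motif CCGGAAGT, read as its reverse complement, in Uqcrh.
Cox6a1, chr5:115348959-115349208, minus strand: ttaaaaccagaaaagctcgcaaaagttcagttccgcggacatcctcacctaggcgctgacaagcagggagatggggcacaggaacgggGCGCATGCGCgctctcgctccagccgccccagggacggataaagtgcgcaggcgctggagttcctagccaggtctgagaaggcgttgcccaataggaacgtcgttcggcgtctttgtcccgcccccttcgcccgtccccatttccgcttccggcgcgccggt
Ndufa1, chrX:37191239-37191488, minus strand: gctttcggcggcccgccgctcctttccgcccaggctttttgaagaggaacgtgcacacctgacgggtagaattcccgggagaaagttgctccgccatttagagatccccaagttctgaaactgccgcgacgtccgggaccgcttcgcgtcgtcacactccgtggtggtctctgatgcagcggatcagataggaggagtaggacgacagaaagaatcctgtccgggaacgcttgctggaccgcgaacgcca
Ndufc2, chr7:97399753-97400002, plus strand: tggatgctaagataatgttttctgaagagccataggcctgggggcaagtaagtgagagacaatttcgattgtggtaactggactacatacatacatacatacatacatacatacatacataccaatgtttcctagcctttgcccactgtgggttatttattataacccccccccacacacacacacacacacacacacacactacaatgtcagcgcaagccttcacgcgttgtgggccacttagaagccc
Uqcrh, chr4:116075071-116075320, minus strand: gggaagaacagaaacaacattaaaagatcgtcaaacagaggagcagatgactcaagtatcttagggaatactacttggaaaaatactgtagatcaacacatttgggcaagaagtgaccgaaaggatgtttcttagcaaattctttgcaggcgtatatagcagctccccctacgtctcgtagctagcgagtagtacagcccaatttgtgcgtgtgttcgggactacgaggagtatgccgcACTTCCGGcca
RefSeq promoters, of 300 bases each, were at hand for 69 of the 96 members. The NRF1 motif, bound by a classical activator of respiratory genes, lay in 8 of these 69 (11.6%), against 1.95% of all 27025 genes. The ETS motif lay in 5 (7.25%, against 4.31%), the YY1 motif AAGATGGCG in 7 (10.1%, against 1.64%) and TATAAA in 7 (10.1%, against 15.7%), and no promoter held overlapping matches of different motifs. Ndufa1 and Ndufc2 held none of the 4 motifs in this window, which says only that these letters are not there.

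In beta-like cells, messages of the mitochondrial genome were lower in CPM in all 3 db/db libraries than in the control. Most nuclear members stayed within 1.5-fold of it in CPM, but with all UMIs 47 of 76 were higher in late db/db. Of the 13 mitochondrial members, 12 were compared, and all 12 lay below control in each of the 3 libraries. With all UMIs as the denominator, 3 of the 12 lay above control with the intervention, 4 in late and 0 in early db/db, and with TMM factors none did. Over control, their median log2 ratio was -0.62 with the intervention, -0.70 in late and -0.86 in early db/db. The nuclear members' medians were -0.11, -0.02 and 0.08, over 76 members, and those of all genes compared were -0.33, -0.31 and -0.27. The nuclear median thus stood above that of all genes and the mitochondrial median below it.

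**Figure D1:**
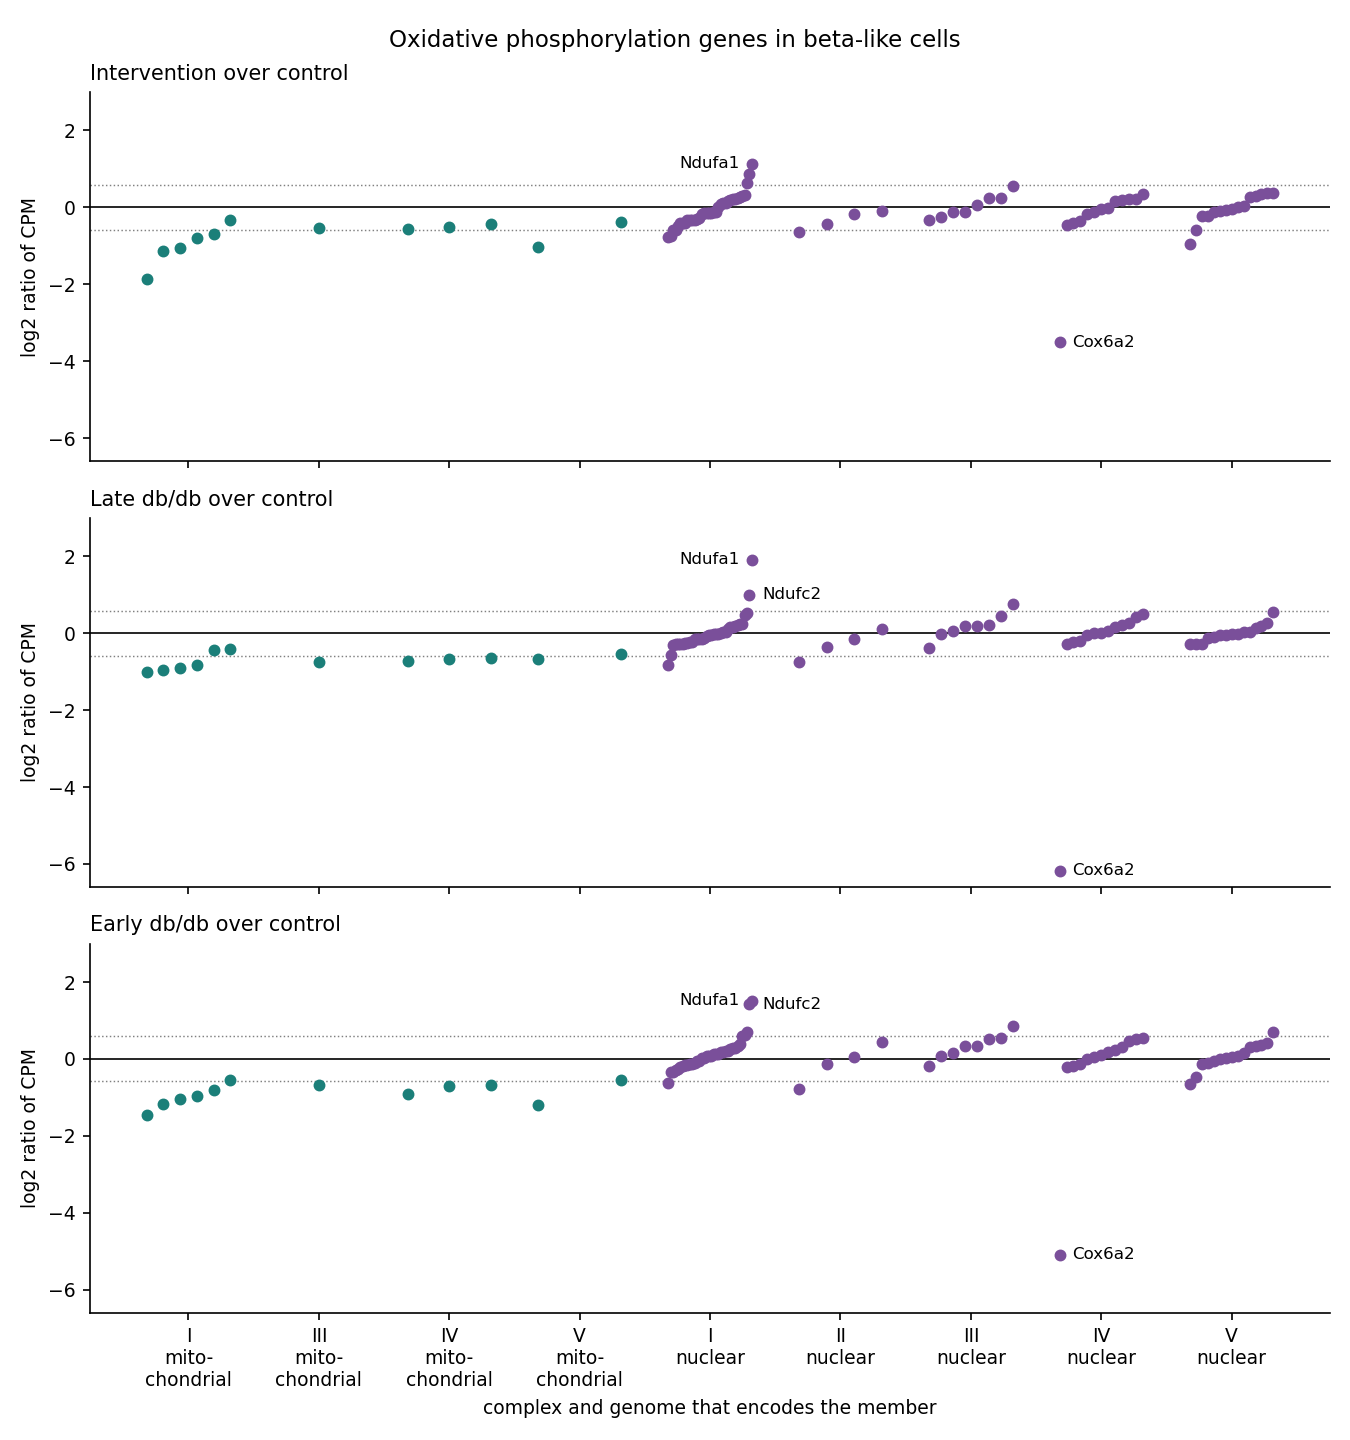
Each point is a member's log2 ratio of CPM in beta-like cells, with the intervention (top), late db/db (middle) and early db/db (bottom) library each over control, in columns by complex and encoding genome and sorted within a column. Dotted lines stand at 1.5-fold. With this denominator all mitochondrial points lie below 0, nuclear points scatter around 0, and Cox6a2 lies far below at -3.50, -6.17 and -5.10.

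Of the 96 members, 88 were compared in beta-like cells. The light-strand gene mt-Nd6, the isoforms Cox4i2, Cox6b2, Cox7a1, Cox7b2, Cox8b and Cox8c, and Atp5s were below the limits on low values. Of the 76 nuclear members compared, 61 stayed within 1.5-fold of control in all 3 db/db libraries in CPM. The share of all genes that did so in all 3 was not counted. With all UMIs, 47 of the 76 were higher and 1 lower in late db/db, where 2152 of 6614 genes were higher and 324 lower. Late db/db over control had 3 members higher and 12 lower of 88, where 8.22% of all genes were higher and 30.1% lower. The 3 higher were the nuclear Ndufa1, Ndufc2 and Uqcrh, and 9 of the 12 lower were mitochondrial. Early db/db over control had 7 higher and 14 lower, against 10.4% and 33.2% of all genes, and 10 of the 14 were mitochondrial. The intervention over control had 3 higher and 13 lower, against 7.95% and 28.8%, with 6 mitochondrial members among the 13. These splits turned with the denominator. With all UMIs, hormones included, 24 members were higher and 4 lower with the intervention, 47 and 1 in late db/db, and 36 and 4 in early db/db. With TMM factors the splits were 8 and 6, 10 and 4, and 25 and 6. Relative to the median of all genes they were 15 and 6, 10 and 4, and 21 and 7. A scaling shifts every gene of a comparison by the same amount, so it leaves the distance between mitochondrial and nuclear members as it is.

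Among the core subunits of complex I, mt-Nd2 had 4263 CPM with the intervention, 4159 in late and 3586 in early db/db, against 7344 in the control. mt-Nd4, another proton-pumping subunit, had 6298, 5424 and 5828 CPM against 10157 in the control. mt-Nd5 had 542, 555 and 496 CPM against 1117. For each of these antiporter-like subunits the 3 db/db libraries lay closer to each other than to the control. mt-Nd3, a small membrane subunit, was at 714 CPM with the intervention, 1326 in late and 951 in early db/db and 2586 in the control. Its log2 ratio over control was -1.86 with the intervention (-1.88 to -1.84), -0.96 in late db/db (-0.98 to -0.95) and -1.44 in early db/db (-1.46 to -1.42). The intervention library was therefore the one furthest from control for this gene. mt-Nd1 had 5490, 5244 and 3574 CPM against 6917, lowest in early db/db. mt-Nd4l had 171, 277 and 256 CPM against 376, and mt-Nd6, the only member on the light strand, was at 18.1, 17.6 and 15.9 CPM against 26.2, too low to be compared.

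For complex III, mt-Cytb, its only mitochondrial subunit, had 11632 CPM with the intervention, 10154 in late and 10600 in early db/db, against 16988 in the control. The 3 core subunits of complex IV also stood below control in each db/db library, apart from 2 values with all UMIs as the denominator, mt-Co3 with the intervention (0.01) and mt-Co1 in late db/db (0.02). mt-Co1 had 12696, 12010 and 9924 CPM against 18674, mt-Co2 14832, 12850 and 13336 against 21272, and mt-Co3 19826, 17001 and 16598 against 26948. Of the complex V proton channel genes, mt-Atp6 had 19297, 15966 and 17393 CPM against 25320, and mt-Atp8 58.4, 81.7 and 52.4 against 119. In GENCODE M21 (GRCm38), mt-Atp8 (chrM:7766-7969) overlaps mt-Atp6 (chrM:7927-8607), and mt-Nd4l (chrM:9877-10173) overlaps mt-Nd4 (chrM:10167-11544). Each pair shares a message, so its split between the 2 genes is uncertain, as are reads shared with nuclear copies of mitochondrial DNA.

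**Figure D2:**
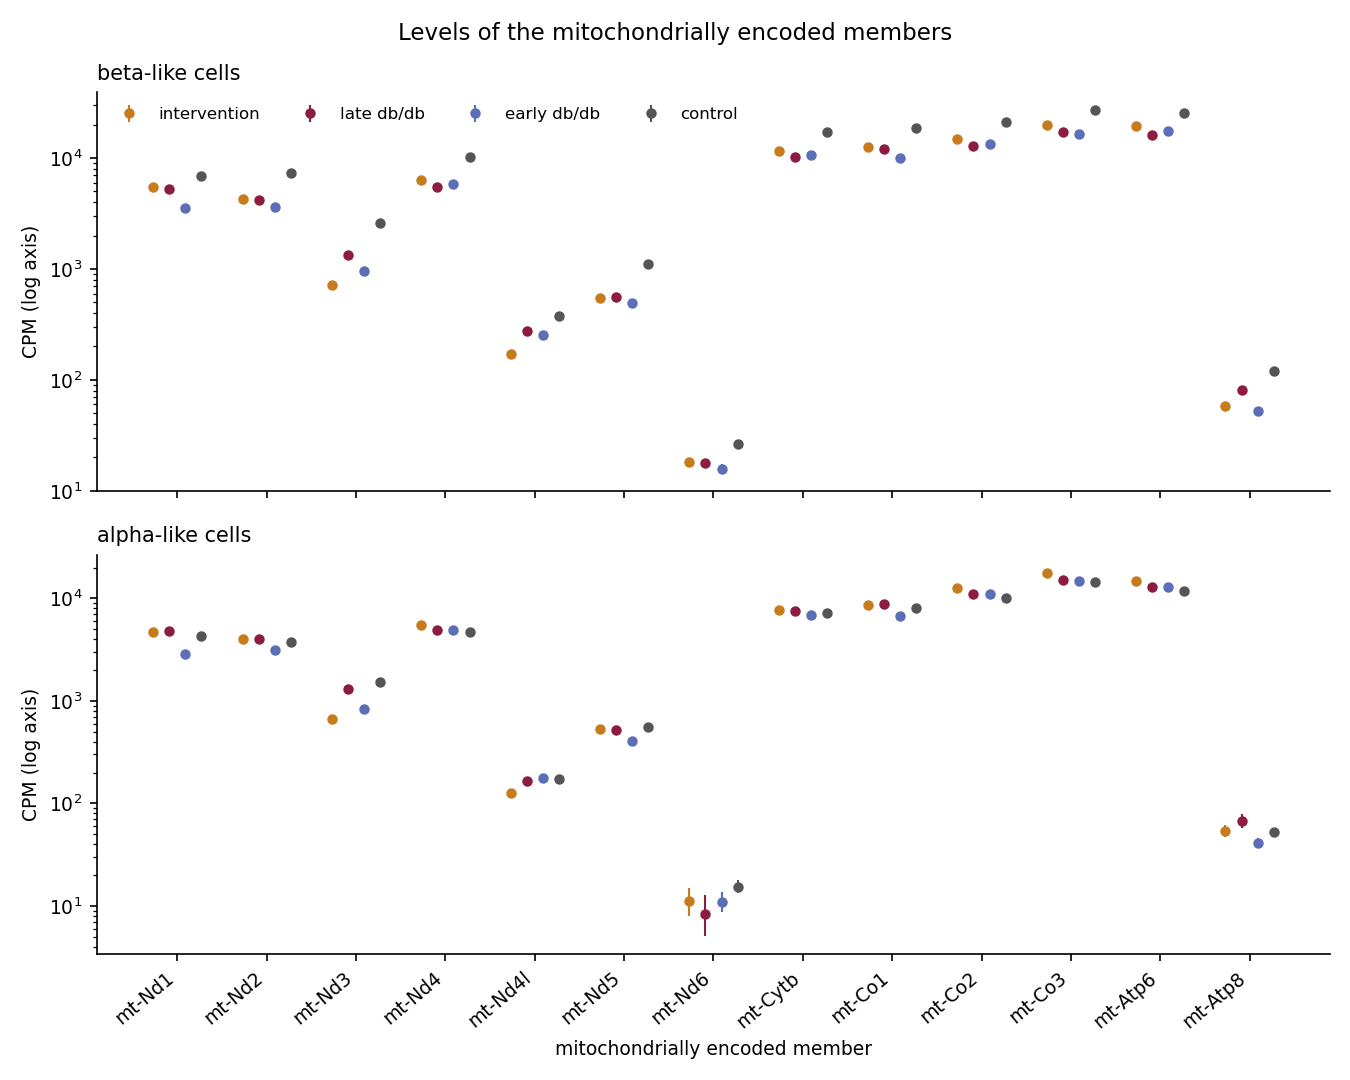
Levels in CPM (log axis) of the 13 mitochondrial members in beta-like (top) and alpha-like cells (bottom), 1 point per library with its exact 95% counting interval. In beta-like cells the control point is the highest for every gene, while in alpha-like cells the 4 libraries lie close together for most genes and mt-Nd3 stays lowest with the intervention.

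The number of mitochondrial UMIs per nuclear member UMI needs no denominator outside the members. In beta-like cells it was 2.96 with the intervention, 2.43 in late and 2.22 in early db/db, against 4.18 in the control, and the control's counting interval ran from 4.17 to 4.19. The control was highest in each mosaic complex. Complex I stood at 1.48, 1.30 and 1.06 against 2.48, complex III at 3.34, 2.51 and 2.40 against 5.17, complex IV at 6.01, 5.04 and 4.51 against 7.87, and complex V at 2.22, 1.78 and 1.83 against 2.82. Per cell, the median was 2.69 with the intervention, 2.33 in late and 2.16 in early db/db and 3.83 in the control. Control cells spread widely, with quartiles of 2.76 and 5.61.

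In neither alpha-like nor delta-like cells was the control highest over all members. In alpha-like cells the ratio was 3.01 with the intervention, 2.47 in late and 2.21 in early db/db and 2.38 in the control. In delta-like cells it was 2.51, 2.04, 1.99 and 2.36. In both classes the intervention library was highest and the control lay between. Gamma-like cells stood at 3.72, 2.46, 2.50 and 2.62. Outside the endocrine cells, the intervention was above late db/db in endothelial-like cells (2.49 against 2.09), macrophage-like cells (3.40 against 2.09) and fibroblast-like cells (3.03 against 2.36), and level with it in pericyte-like cells (3.28 in both). The controls of these 4 classes were at 2.33, 2.63, 3.19 and 2.35. Cluster make-up differed between the libraries. In late db/db, 175 of 191 macrophage-like cells lay in a cluster that held 11 of 102 intervention cells. A Ccl21a-rich cluster held 132 of 178 late db/db fibroblast-like cells, and a cluster led by Glycam1 46 of 122 endothelial-like cells. Neither held intervention or control cells. Control fibroblast-like cells numbered 32. The part of cluster make-up in these ratios was not tested.

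**Figure D3:**
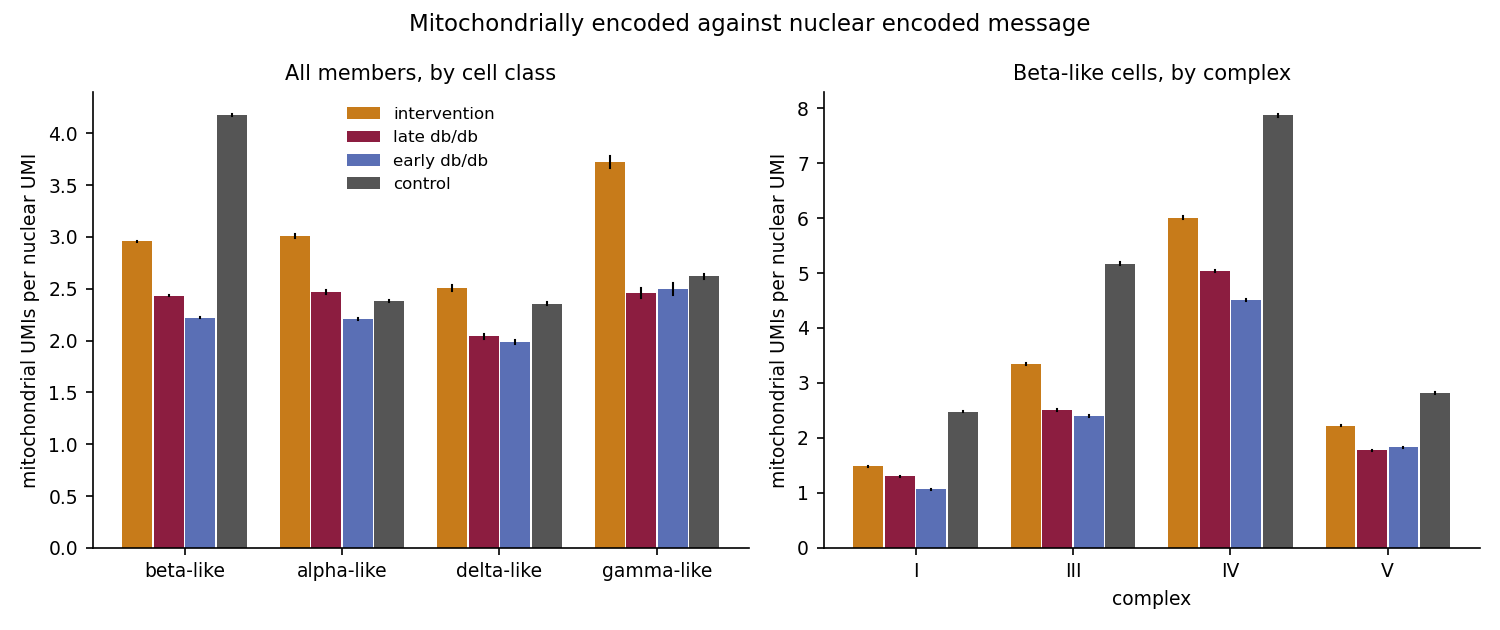
Mitochondrial UMIs per nuclear member UMI by endocrine class (left) and by complex in beta-like cells (right), 1 bar per library with its exact 95% counting interval. Among these classes the control bar is highest only in beta-like cells, at 4.18, and there in each complex.

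Depth moved with this ratio. With beta-like cells split into 3 equal parts by UMIs, the shallowest, middle and deepest part had 5.88, 2.69 and 2.52 mitochondrial per nuclear UMIs with the intervention, 2.98, 2.32 and 2.32 in late db/db, 2.45, 2.25 and 2.11 in early db/db, and 5.54, 4.70 and 3.40 in the control. The control's deepest part was above the deepest part of each db/db library. The intervention's shallowest part had a median of 12971 UMIs per cell and the control's 25541.5, against 41055.5 in late and 21282.5 in early db/db. A cluster of 559 intervention cells with a median of 12430 UMIs, which clustered with 2208 control cells, reached 7.10, against 4.25 in those control cells. The part of depth, and of cells removed by the mitochondrial maximum, in the ratios was not tested. Without that maximum the log2 ratio over control was -0.69 with the intervention, -0.96 in late and -1.18 in early db/db, and with a maximum of 10% it was -0.62, -0.80 and -0.91, against -0.50, -0.78 and -0.91 at 20%. With every cell weighted alike, the intervention's value over control was -0.10. In cells of 20000 to 60000 UMIs, 2172 with the intervention, 131 in late and 752 in early db/db and 1265 in the control, the ratio was 2.70, 3.36, 2.34 and 5.01. There the control was again highest, and the intervention lay below late db/db.

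Among nuclear subunits of complex I, Ndufa1 was furthest above control. This X-linked gene (chrX:37187588-37191163, minus strand) encodes a small accessory subunit that complex I assembly needs. It had 1166 CPM with the intervention, 2006 in late and 1524 in early db/db, against 532 in the control. Its log2 ratio over control was 1.13 with the intervention (1.11 to 1.16), 1.92 in late db/db (1.89 to 1.94) and 1.52 in early db/db (1.49 to 1.54). In alpha-like cells the libraries were closer, at 353, 558 and 505 CPM against 400 in the control, and in delta-like cells they were at 427, 596 and 503 against 383. Late db/db was the highest library in each class. In beta-like cells Ndufa1 rose with depth within every library. From the shallowest to the deepest part it went from 1571 to 2196 CPM in late db/db and from 416 to 610 in the control. In the depth window used above it had 1180 CPM with the intervention, 1409 in late and 1394 in early db/db, against 462 in the control. There late and early db/db were close, and both stayed above control. The part of depth in the Ndufa1 ratios was not tested.

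Ndufc2, another accessory membrane subunit, had 783 CPM with the intervention, 864 in late and 1161 in early db/db, against 432 in the control. Early db/db was the highest here, with a log2 ratio of 1.43 (1.40 to 1.46). Ndufb5 had 476, 421 and 468 CPM against 305, and was past 1.5-fold with the intervention and in early db/db only. Ndufa12 and Ndufv2 were past it in early db/db alone, at 0.70 and 0.61. In the other direction, Ndufa5, Ndufa7 and Ndufb4 were past 1.5-fold lower with the intervention alone, at -0.77, -0.75 and -0.59 over control. The highest summed complex I message from the nucleus was in early db/db, with 11813 CPM with the intervention, 13063 in late and 13832 in early db/db, against 11504 in the control. Over the 36 nuclear complex I genes, 3 were higher and 3 lower with the intervention, 2 and 1 in late db/db, and 5 and 1 in early db/db. Over all genes 7.95%, 8.22% and 10.4% were higher and 28.8%, 30.1% and 33.2% lower, shares that also stand beside the other complexes below. With all UMIs, the 76 nuclear members split into 24 higher and 1 lower, 47 and 1, and 36 and 1.

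Complex II, which also works in the tricarboxylic acid cycle, had 1 of its 4 genes past 1.5-fold. Sdha, the flavoprotein that oxidises succinate, had 132 CPM with the intervention, 123 in late and 118 in early db/db, against 205 in the control. The 3 db/db libraries were close to each other. With TMM factors Sdha was at -0.37, -0.43 and -0.45, within 1.5-fold of control. Sdhb, Sdhc and Sdhd ranged in log2 ratio over control from -0.43 to 0.45.

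Complex III genes stood mostly above control in late and early db/db, with nuclear medians of -0.02 with the intervention, 0.19 in late and 0.34 in early db/db over 8 genes. Uqcrh, the hinge protein at cytochrome c1, had 832, 950 and 1030 CPM against 565 in the control, past 1.5-fold in late and early db/db. Uqcrq, another subunit of this complex, had 809, 930 and 996 against 678. The core proteins Uqcrc1 and Uqcrc2 lay between -0.37 and 0.15 of control in log2. No nuclear complex III gene was past 1.5-fold lower.

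Complex IV held the largest contrast of all members. Cox6a2, the heart and muscle isoform of subunit 6a, had 36.5 CPM with the intervention (1783 UMIs), 5.72 in late db/db (158 UMIs) and 12.1 in early db/db (379 UMIs), against 413 in the control (12996 UMIs). It was 72.2-fold lower in late db/db than in the control, with a log2 ratio of -6.17 (-6.41 to -5.95), and at -5.10 in early db/db and -3.50 with the intervention. The intervention over late db/db was 2.67 (2.44 to 2.92), so the intervention was the higher of the pair and still far from control. In cells of 20000 to 60000 UMIs, where late db/db had 74 Cox6a2 UMIs in 131 cells, the ratio over control was -3.10 with the intervention, -3.64 in late and -4.72 in early db/db, and the intervention over late db/db was 0.54, within 1.5-fold. Cox6a1, the isoform of most tissues, had 412, 502 and 490 CPM against 353. Cox6a2 therefore made up 8.13% of subunit 6a UMIs with the intervention, 1.13% in late and 2.41% in early db/db, against 54.0% in the control.

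Cox6a2 was scarce in alpha-like and delta-like cells. Its share of subunit 6a UMIs was 1.05% with the intervention, 0.573% in late and 0.453% in early db/db and 2.27% in the control in alpha-like cells, on 11, 5, 10 and 82 UMIs. In delta-like cells it was 1.90% and 5.21% in the intervention and control libraries, with 0 UMIs in late and early db/db. There 3 UMIs, a limit set for counts of 0 and not an exact interval, would be 0.485% and 0.439%. In gamma-like cells it was 0 of 162 UMIs with the intervention, 0 of 195 in late and 0 of 119 in early db/db. The same limit of 3 UMIs would be 1.85%, 1.54% and 2.52% there. In control gamma-like cells the Cox6a2 share was 23.1% (199 UMIs, 20.3 to 26.0), beside 30.6% of their UMIs from Ins2 and 8.99% from Ins1. In the control, 3.51% also stood in endothelial-like cells and 12.1% in macrophage-like cells. The alpha-like share there lay below both, the delta-like share between them and the gamma-like share above them. The part of free RNA or of beta-cell message in these shares was not tested. With each cell thinned to 5000 UMIs, a Cox6a2 UMI was found in 6.08% of beta-like cells with the intervention (5.28 to 6.96), 0.766% in late db/db (0.282 to 1.66), 2.19% in early db/db (1.52 to 3.04) and 37.8% in the control (35.7 to 39.8). Unthinned shares were 18.1%, 4.51%, 6.24% and 79.6% at median depths of 41404.5, 84996, 54433 and 49381 UMIs. The same thinned share in alpha-like cells was 1.05%, 0 of 151 cells, 0.360% and 1.49%, at median depths of 12840, 31290.5, 18273.5 and 20368.5 UMIs.

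Within the intervention library the share was uneven. Its 559 cells that clustered with the control's stood at 27.4%, the main cluster of 1889 cells at 8.61%, and a cluster of 757 cells shared with late db/db at 3.47%. In late db/db the matching clusters of 166 and 499 cells stood at 2.20% and 0.914%. So the intervention was above late db/db within both clusters. The late db/db cells there were deeper, with medians of 96094 and 83842 UMIs against 45716 and 41369 with the intervention. The part of depth in this was not tested. In the 3 parts by depth, shallowest to deepest, the share was 10.5%, 8.38% and 7.40% with the intervention, 3.07%, 0.716% and 0.695% in late db/db, 5.90%, 1.37% and 1.89% in early db/db, and 44.4%, 49.8% and 59.0% in the control. Each part of a db/db library lay below each part of the control.

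**Figure D4:**
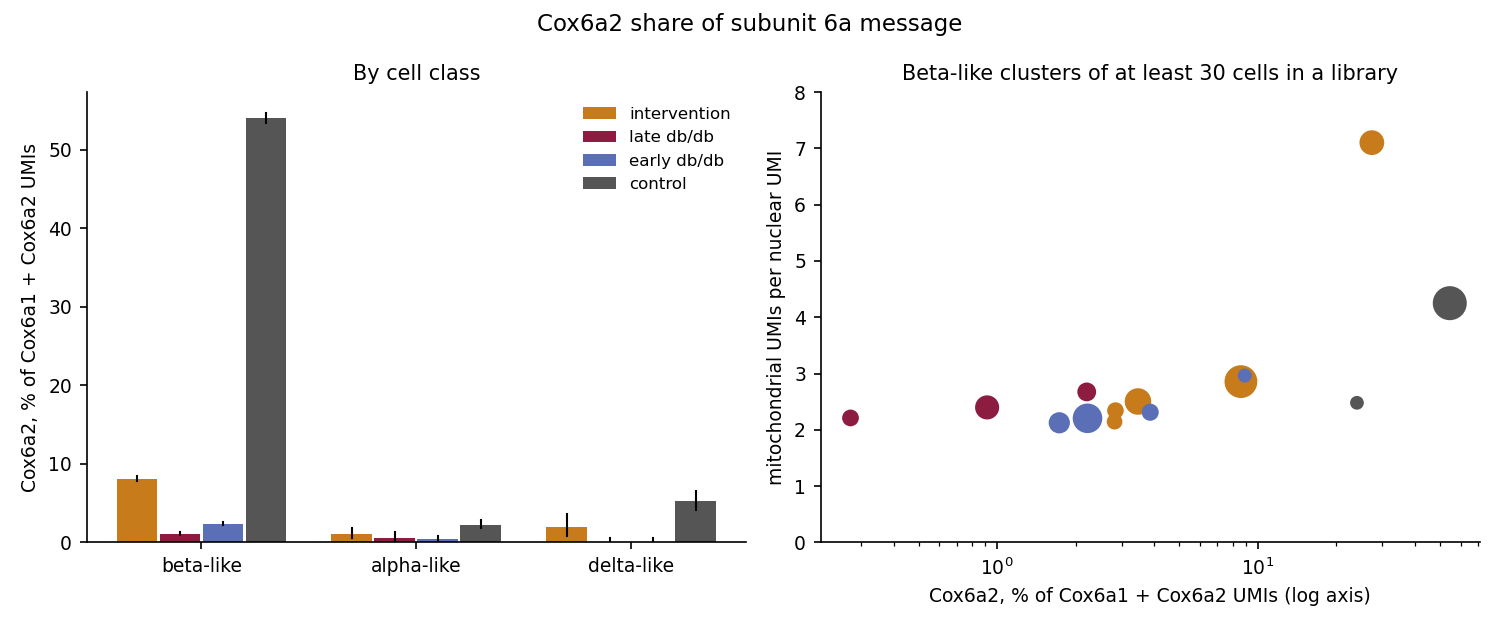
Left, Cox6a2 as a percentage of Cox6a1 plus Cox6a2 UMIs by class and library, with exact 95% intervals. Right, each point is a beta-like cluster of at least 30 cells in 1 library (area grows with the number of cells), with that percentage on a log axis against mitochondrial UMIs per nuclear UMI. The main control cluster stands at 54.5% and 4.25, and the intervention cluster of 559 cells at 27.4% and 7.10.

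Other paired isoforms of complex IV were not expressed by beta-like cells beyond traces. Cox4i2, an isoform tied to low oxygen in lung, had 5, 2, 6 and 1 UMIs there, while in pericyte-like cells it took 41.3%, 43.4%, 42.9% and 59.3% of Cox4i UMIs. Cox7b2, known from testis, had 3.07 CPM with the intervention, 2.97 in late and 2.74 in early db/db, against 0.350 in the control, on 150, 82, 86 and 11 UMIs. Alpha-like cells also had more of it in each db/db library than in the control, at 4.47, 6.29 and 3.67 CPM against 0.643. The muscle isoform Cox7a1 had 0.737, 1.30 and 1.44 CPM against 5.03 in beta-like cells. Cox6b2, Cox8b and Cox8c were at or under 1.37 CPM in every library. Cox7a2l, a supercomplex factor related to Cox7a2, took 63.0%, 57.4%, 57.2% and 58.2% of the Cox7a family's UMIs in beta-like cells. It was highest with the intervention in alpha-like cells too, at 61.8%, 53.7%, 53.2% and 52.3%. Of the 13 complex IV nuclear genes that were compared, only Cox6a2 was past 1.5-fold in any of these 3 comparisons. Cox4i1 and Cox5a, which bind close to the catalytic core, ranged from 0.06 to 0.55 in log2 over control.

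Complex V genes were mostly near control, with a nuclear sum of 8710 CPM with the intervention, 9021 in late and 9535 in early db/db, against 9027 in the control. The catalytic pair Atp5a1 and Atp5b lay between -0.27 and -0.04 in log2. Atp5g1, 1 of 3 genes for the rotor ring subunit c, had 885 CPM with the intervention, 1069 in late and 1184 in early db/db, against 731 in the control. It took 45.4%, 53.1%, 51.6% and 43.9% of subunit c UMIs, and Atp5g2 39.1%, 31.6%, 34.1% and 37.0%, so Atp5g1 took a larger part in late and early db/db. Atp5k, subunit e at the dimer interface, had 151, 270 and 187 CPM against 291. Late db/db was close to control for this gene, while early db/db was at -0.64 and the intervention was 1.93-fold lower than control. Atp5e, the epsilon subunit, was at -0.59 with the intervention. Atp5s, a related factor that is not part of the enzyme's core, was under the limit for comparison.

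Set directly beside late db/db, the intervention had 1 member higher and 4 lower in beta-like cells, against 3.19% and 2.66% of all genes. With all UMIs as denominator the split was 1 and 9, and with TMM factors 1 and 5. Cox6a2 was the higher member. The lower ones were mt-Nd3 at -0.89, Atp5k at -0.84, Ndufa1 at -0.78 and mt-Nd4l at -0.69. Cox6a2 and Ndufa1 were nearer to control with the intervention than in late db/db, while mt-Nd3, mt-Nd4l and Atp5k were further from it. In cells of 20000 to 60000 UMIs Ndufa1 was at -0.26. Nuclear members had a median of -0.08 and mitochondrial ones of 0.07. Late over early db/db gave 1 higher (mt-Atp8 at 0.64) and 1 lower (Cox6a2 at -1.08) of 88, against 1.74% and 1.22% of all genes, and 5 and 1 with all UMIs. The Cox6a2 ratio of late over early db/db turned to 1.07 in cells of 20000 to 60000 UMIs.

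Members of short transcripts were lower with the intervention than in late db/db. Of the 17 compared members whose longest transcript is under 600 nucleotides, 17 had a ratio below 0 in beta-like cells, with a median of -0.30, against 0.00 for the 71 longer members. In alpha-like cells it was 16 of 17 (-0.34 against -0.03) and in delta-like cells 16 of 18 (-0.33 against 0.04). Short genes of every kind showed the same, with 79 of 98, 75 of 94 and 73 of 95 below 0. So did short members in endothelial-like cells (15 of 18) and macrophage-like cells (15 of 17). Ndufa1, Atp5k, mt-Nd3 and mt-Nd4l, with longest transcripts of 419, 371, 348 and 297 nucleotides, are all among them. The part of transcript length in their ratios was not tested.

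**Figure D5:**
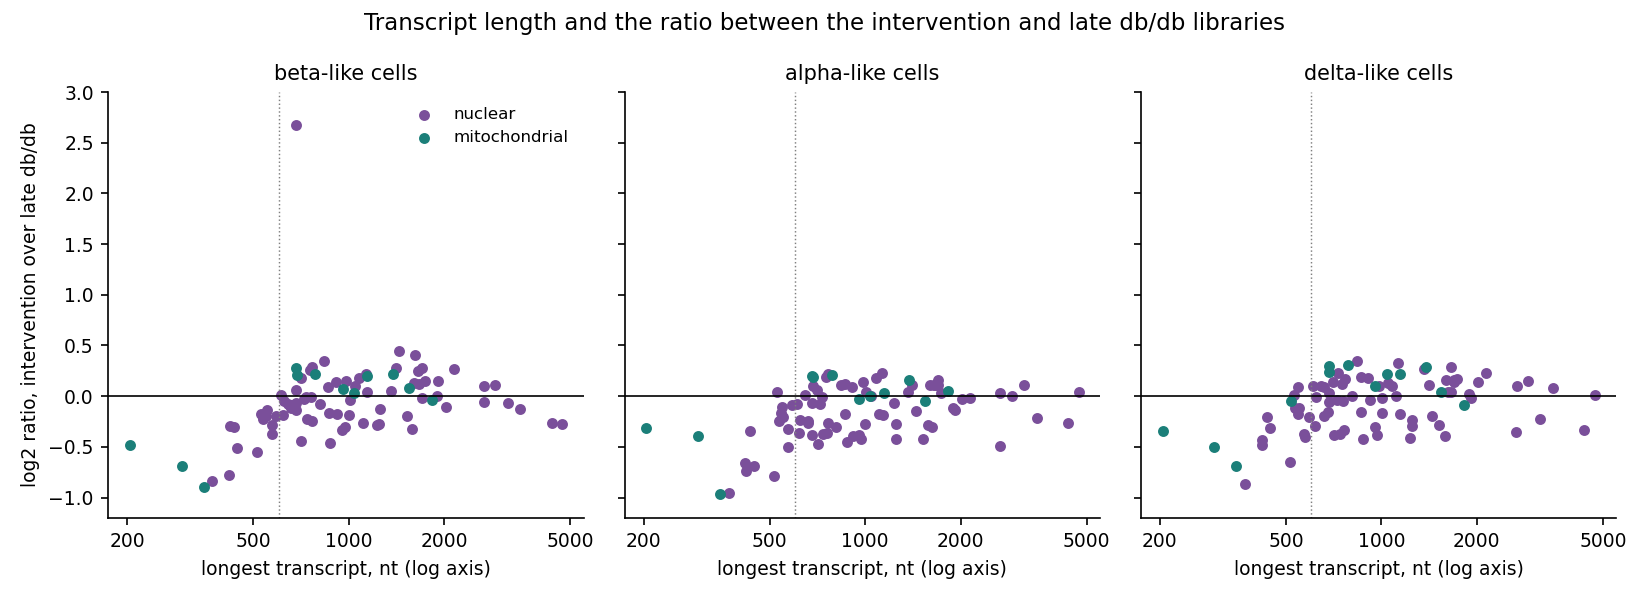
Log2 ratio of the intervention over late db/db against the longest annotated transcript of each compared member (log axis), in beta-, alpha- and delta-like cells. The dotted line stands at 600 nucleotides, left of which nearly all points lie below 0 in the 3 classes. The point high in the beta-like panel is Cox6a2 at 2.67.

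In alpha-like cells few members were apart between groups. Late db/db over control had 0 higher and 1 lower of 87 (Ndufa7 at -0.71), against 3.2% and 4.06% of all genes, and a mitochondrial median of 0.08. Early db/db over control had 0 higher and 2 lower, mt-Nd3 at -0.89 and mt-Nd1 at -0.59, against 3.48% and 9.34%. The intervention had 0 higher and 6 lower over control (3.17% and 3.42% of all genes) and 0 higher and 6 lower over late db/db (3.75% and 3.17%). In both, the lower share of members was above that of all genes. mt-Nd3, at 670, 1305, 829 and 1533 CPM in the intervention, late, early and control libraries, was among the lower ones in both, as were Atp5k, Atp5e and Ndufa3. Late over early db/db had 4 higher and 0 lower (5.14% and 1.99%), namely mt-Nd1, mt-Atp8, mt-Nd3 and Atp5k.

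Few members were apart in delta-like cells too. Late db/db over control had 1 member higher and 0 lower of 88 (Ndufa1 at 0.64), against 3.87% and 5.15% of all genes. Early db/db had 2 higher, Ndufc2 at 0.60 and Cox5a at 0.63, and 3 lower, mt-Nd3, mt-Atp8 and mt-Nd6 (5.62% and 9.23%). The intervention had 0 higher and 2 lower over control, mt-Nd3 and Atp5k (3.76% and 4.46%), and 0 higher and 3 lower over late db/db (4.46% and 4.2%). Late over early db/db had mt-Nd6 higher and 0 lower (5.03% and 4.65%). In gamma-like cells only the intervention and control libraries held the 30 cells needed. There 0 of 89 members were higher and 10 lower, against 5.59% and 13.8% of all genes, beside an Ins2 share of 12.5% against 30.6%.

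Between classes of 1 library, alpha-like cells were below beta-like cells in all 4 libraries for 62 of 88 members, against 2628 of 6621 genes, and for 5 of them with all UMIs as the denominator. By at least 1.5-fold, 10 members were lower in each library (13.0% of all genes) and 1 was higher (4.86%). Cox5a ranged from -1.47 to -1.37 in log2 over the libraries, Uqcrq from -1.42 to -1.11, Atp5g1 from -1.48 to -1.05 and Ndufa4 from -1.11 to -0.67. The others were Sdhc, Cox7b, Cox6a2, Ndufb9, Ndufv3 and Ndufb8. With hormone genes left out of the denominator, these genes were lower in alpha-like cells of the db/db and control libraries alike. With all UMIs this can hold for at most 5 of them, as only 5 members were lower in all 4 libraries. Ndufa6, an accessory subunit of the matrix arm, was the higher one, from 0.78 to 0.98. Delta-like cells were below beta-like cells for 56 of 89 members, and for 4 with all UMIs, with 9 lower by 1.5-fold in every library (5.95%) and 0 higher (8.59%). Uqcrq, Atp5g1, Ndufb9 and Cox6a2 were shared with the alpha-like list, and mt-Nd1, mt-Nd3, mt-Nd4l, mt-Nd5 and mt-Cytb were added. Clustering left out the members, but the classes come from the same cells.

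Related mitochondrial genes were followed in beta-like cells, named by their highest and lowest ratios. Of 20 genes of the tricarboxylic acid cycle and pyruvate entry, 0 were higher and 4 lower in late db/db than in the control, with a median of -0.32. Over all genes 8.22% were higher and 30.1% lower, with a median of -0.31, so the list as a whole was near this background. Pcx, the pyruvate carboxylase that refills the cycle, had 13.8 CPM in late db/db cells against 95 in the control. Idh2 had 91.0 against 188, and Dlst, a subunit of the oxoglutarate dehydrogenase complex, 41.3 against 74.2. Among 7 genes of the NADH shuttles 1 was higher and 1 lower. Gpd2, which hands electrons from cytosolic glycerol phosphate to the chain, had 31.9 CPM against 174, and Got1 of the malate-aspartate shuttle 49.8 against 30.7. Pcx at -2.78 and Gpd2 at -2.45 were further below control than every member compared except Cox6a2.

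Of 12 electron carrier and coenzyme Q genes, 1 was higher in late db/db (cytochrome c, Cycs, 379 CPM against 253 in the control) and 3 lower (Etfa, Coq10b and Coq10a, down to -0.74). The lists that follow are set against the same background of 8.22% higher and 30.1% lower. Of 33 assembly factors, 0 were higher and 4 lower, a smaller share than over all genes, with Coa5 at -1.12 and Uqcc2 at 527 CPM against 1016. Of 71 mitochondrial ribosomal protein genes, 0 were higher and 5 lower, with a median of -0.10. Among 7 genes for mitochondrial DNA and its transcription, none was past 1.5-fold, and Tfam, which packages and transcribes that DNA, was at 49.4 CPM against 49.3. None of 9 genes of ATP export and uncoupling was past it, with the phosphate carrier Slc25a3 at 0.54 and the uncoupling protein gene Ucp2 at 0.53. Of 81 cytosolic ribosomal protein genes, 28 were higher and 0 lower. Of 3 hypoxia response genes measured, Vegfa was lower, at -1.68.

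With the intervention over late db/db, where 3.19% of all genes were higher and 2.66% lower, 1 of the 20 cycle genes was higher (Pcx, 21.9 CPM against 13.8), and in the shuttles Gpd1 was at 0.70 and Gpd2 at 0.19. Coq8a was higher at 0.62. Lower were the assembly factor Pet100 at -0.84, the RNA-binding Slirp at -0.68, Mrps18b at -0.68 and 6 of 81 cytosolic ribosomal protein genes. No gene of ATP export or of the hypoxia list was past 1.5-fold. Tfam was at 0.03. Among 10 RNA quality and dissociation genes 4 were lower and 0 higher, Fos at -1.31, Neat1 at -0.99 and Jun at -0.71 among them, and in late db/db over control Fos was at 0.66. Their part in the results was not tested.

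Other signals also differed between beta-like sums. Beta markers other than hormones, 9 of the 12 listed, summed to 3417 CPM with the intervention, 1666 in late and 1744 in early db/db and 8981 in the control, with 0, 1, 0 and 0 of the 9 at 0. The control thus held the most of them, as it did of mitochondrial message and Cox6a2. Alpha markers without hormones, 11 of the 12 listed, summed to 27392 CPM with the intervention, 18299 in late and 18840 in early db/db, against 9219 in the control, with none at 0. Their part in the results was not tested. Ttr and Pcsk2, which beta cells also express, are on this list. Acinar markers summed to 162 CPM with the intervention, 317 in late and 1658 in early db/db and 109 in the control, with none of the 7 at 0. T and NK markers summed to 1.17, 26.8, 0.734 and 0.127 CPM, with 2, 1, 2 and 5 of 9 at 0, and erythroid markers to 554, 11.8, 320 and 12.5, with 0, 1, 0 and 1 of 6 at 0. Without the 2 beta-like clusters that raised such markers, the mitochondrial medians over control were -0.62 with the intervention, -0.69 in late and -0.85 in early db/db, and 16, 15 and 21 members were past 1.5-fold. Malat1, a nuclear RNA, had 24648, 25146, 11570 and 25913 CPM. The part of these signals in single members' ratios was not tested.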

How the data were processed

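Islet cells of 4 mouse samples, 1 per group, were measured by droplet single-cell RNA sequencing with 3′ tags (10x kit version 3, per the labels' protocols). The deposited matrices hold raw UMI counts per gene and barcode, written by Cell Ranger 3.0.0 per the file headers. The submitters' processing notes name CASAVA 1.8, Cell Ranger, Seurat and mm10, without roles. Gene positions and transcript lengths came from GENCODE M21 (GRCm38) by gene ID.

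Cells with at least 1000 UMIs, 500 genes and at most 20% mitochondrial UMIs were kept. Scrublet's automatic threshold did not separate doublets, so its highest scores were removed at 0.8% per 1000 cells. Cells of all libraries were clustered together (Leiden, resolution 1, 2000 variable genes, 30 components, 15 neighbours, scanpy 1.11.5) without hormone, mitochondrial, ribosomal or member genes. Clusters were named from marker lists. After the clusters were seen, an endocrine cluster whose own hormone was not among its 10 leading genes was left unnamed, which took 22 late db/db cells out of the alpha-like class. Counts were summed per class and library (Python 3.11.15, numpy 2.4.6, scipy 1.17.1). Intervals are exact conditional binomial for ratios, exact Poisson for levels and Clopper-Pearson for shares. UMIs of 1 library measure counting error only, so there are no p-values. The arithmetic of the ratios was run on simulated counts with known changes and counting error alone. This run cannot speak to differences between animals, libraries or depths. Alternatives included TMM factors (edgeR 4.0.16), other denominators, filters, depth windows and cell weights.

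Members and gene lists were chosen with earlier results of these data known. Of the members, 1 is counted and not reported here on its own. Every other member could be named, and of the other lists the 3 highest and 3 lowest ratios in late db/db over control and in the intervention over late db/db. 3′ tags are not scaled by length, so levels are not compared between genes. Reads shared with pseudogenes or near-identical copies make single members uncertain. Promoters are RefSeq's (GRCm38.p6).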

Additional observations from a re-analysis of the deposited data

Results flagged for a closer look

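Ratios that ran one way in beta-like cells and the other way in a second endocrine class under the same comparison stood out, each counted where the beta-like value was past 1.5-fold. With 1 library per group none of these differences was tested. All values are log2.

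Late db/db over control differed in direction between beta-like and alpha-like cells for mt-Nd2, at -0.82 against 0.08. It did so for mt-Nd4 (-0.91 against 0.08), mt-Cytb (-0.74 against 0.07), mt-Co1 (-0.64 against 0.13), mt-Co2 (-0.73 against 0.12), mt-Co3 (-0.66 against 0.07) and mt-Atp6 (-0.67 against 0.12). Mitochondrial per nuclear UMIs followed, at -0.78 against 0.05. The alpha-like values are all close to 0, so the contrast rests on the beta-like side. The directions of single genes depend on the denominator, as hormone genes took 44.5% of alpha-like UMIs in late db/db and 38.1% in the control. With all UMIs these alpha-like gene values fall below 0, and mt-Co1 in beta-like cells rises just above 0. Mitochondrial per nuclear UMIs do not depend on it.

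Early db/db over control differed from alpha-like cells for mt-Co2 (-0.67 against 0.13) and mt-Nd4 (-0.80 against 0.07). With all UMIs these alpha-like values also fall below 0. It differed from delta-like cells for mt-Co2 (-0.67 against 0.09), mt-Co3 (-0.70 against 0.04) and mt-Nd4 (-0.80 against 0.06).

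The intervention over control differed from alpha-like cells for Ndufa1, at 1.13 against -0.18. The mitochondrial genes mt-Nd2 (-0.78 against 0.08) and mt-Nd4 (-0.69 against 0.25) did so as well. With all UMIs the alpha-like value of mt-Nd2 falls below 0.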

How the results depend on the processing

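No paired analysis was possible because each group had 1 library, so no library was left out of a group. In the values below, comparisons come in the order intervention over control, late db/db over control, early db/db over control, intervention over late db/db, late over early db/db, and those that stayed close to the main value are left out.

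With a 2-fold limit, 6, 4, 7, 1 and 1 members of beta-like cells were apart, against 16, 15, 21, 5 and 2 at 1.5-fold. With all UMIs as the denominator the counts were 28, 48, 40, 10 and 6. A filter of 50 CPM gave 1 for late over early db/db, a filter of 1 UMI gave 8 and 4 for the last 2 comparisons, and cells of 20000 to 60000 UMIs gave 9 for late db/db over control and 6 for late over early db/db.

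Nuclear medians were 0.35, 0.63, 0.54, -0.28 and 0.061 with all UMIs. With TMM factors they were 0.15, 0.29 and 0.42 over control, and 0.22, 0.29 and 0.35 relative to the median of all genes. With cells weighted alike the intervention over control was at -0.17 and late over early db/db at -0.18. In cells of 20000 to 60000 UMIs the intervention over late db/db was at -0.001 and late over early db/db at -0.18.

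Mitochondrial medians over control were -0.17, -0.04 and -0.39 with all UMIs, -0.36, -0.38 and -0.51 with TMM factors, and -0.29, -0.39 and -0.58 relative to the median of all genes. With cells weighted alike they were -0.26 for the intervention over control and 0.36 for the intervention over late db/db. In cells of 20000 to 60000 UMIs late db/db over control was at -0.52.

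Mitochondrial per nuclear UMIs, in log2, were -0.69, -0.96, -1.18, 0.27 and 0.22 without a mitochondrial maximum, -0.62, -0.80, -0.91, 0.19 and 0.10 at 10%, -0.10, -0.74, -0.98, 0.64 and 0.24 with cells weighted alike, and -0.89, -0.57, -1.10, -0.32 and 0.53 in cells of 20000 to 60000 UMIs. With free RNA subtracted, -0.51, -0.93, 0.28 and 0.14 stood for all but late db/db over control, and without the mixed clusters early db/db over control was at -0.91. The Cox6a2 share was 9.32%, 1.52% and 52.9% in the intervention, late db/db and control libraries with cells weighted alike, and 4.95% and 48.1% in late db/db and the control in cells of 20000 to 60000 UMIs.

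With all UMIs, 5 and 4 members were lower in alpha-like and delta-like than in beta-like cells of all 4 libraries. For single members, direction was checked only between groups, for Cox6a2, Ndufa1, Ndufc2, Uqcrh, Sdha and the mitochondrial members. Among these, 2 called values changed direction. mt-Co1 did so in late db/db over control with all UMIs (0.02). Cox6a2 did so in late over early db/db in cells of 20000 to 60000 UMIs (1.07). For both, the cause was not tested.

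Of the summary values under all alternatives, 196 stayed close to the main value and 74 moved. Of the other values, among them single members and the alpha-like and delta-like medians, 2587 stayed close, 1189 moved and 2 changed direction. For mitochondrial per nuclear UMIs and the Cox6a2 share, the depth window and equal weighting were chosen after seeing the data, as was leaving out mixed clusters. Delta-like cells of 20000 to 60000 UMIs were too few in 4 comparisons, which were not run. Cox6a2 rested on 158 UMIs in late db/db.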

Other observations

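In a median beta-like cell, nuclear members took 2.93% of UMIs outside hormone genes (mitochondrial UMIs included) with the intervention, 3.20% in late and 3.43% in early db/db, against 2.86% in the control. On the same scale, mitochondrial members came to 8.02%, 7.54% and 7.36%, against 11% in the control. Over all UMIs of a cell, hormone genes included, their median was 3.24%, 3.52% and 2.95%, against 3.34% in the control. On that scale late db/db stood above control, so the order of the libraries depends on the denominator.

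Among the supporting cells, fibroblast-like cells had 3.03 mitochondrial per nuclear UMIs with the intervention, 2.36 in late and 2.52 in early db/db, against 3.19 in the control. Pericyte-like cells had 3.28, 3.28 and 2.90, against 2.35 in the control, so the 2 classes had opposite orders of late db/db and control. The late db/db fibroblast-like cells came mostly (132 of 178) from a Ccl21a-rich cluster without control cells, and the control had 32 fibroblast-like cells.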
